A study of Mus musculus with 12 samples.

Results

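The genotype by caerulein interaction asks, for each probe set, whether the response of the pancreas to caerulein differed between mice lacking Mist1 (Mist1KO) and wild type mice. It was taken as the change with caerulein in Mist1KO minus the change with caerulein in wild type, from group means of log2(signal + 18.7). All 12 arrays of the series enter it, and all 22452 of the 22516 probe sets were tested, leaving out 64 control probe sets. The 4 groups of 3 arrays were wild type after saline, wild type after caerulein, Mist1KO after saline and Mist1KO after caerulein. The mice were males of 2 to 4 months, given injections every hour for 4 hours and sacrificed at that point, and total RNA was taken from the whole pancreas. The wild type mice were labelled C57BL6, and the sources used here do not give the background of the Mist1KO mice. The series' design text calls the pancreata biological replicates. A value above 0 means that the change with caerulein was higher in Mist1KO, and a value below 0 that it was higher in wild type.

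Mist1 (gene symbol Bhlha15) belongs to the basic helix-loop-helix proteins and controls genes in cells that make and store secretory proteins, and the acinar cells that fill most of the pancreas depend on it for their granules and polarity. Caerulein is an analogue of cholecystokinin, the hormone that makes acinar cells release their enzymes, and repeated high doses cause acute pancreatitis in mice. Cells that fold much protein answer such a load through the unfolded protein response and through the integrated stress response, in which phosphorylation of the initiation factor eIF2 slows translation and raises Atf4 and its targets.

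Bhlha15 itself gave no call for the interaction. Wild type means were 1610 after saline and 782 after caerulein, and Mist1KO means 97.5 and 53.4, so that the 6 Mist1KO arrays lay below all wild type arrays. The interaction was 0.30 ± 0.24 (log2 ± SE, 3 arrays per group, adjusted p = 0.666), and the other probe set of the gene had the same sign without passing. Its position is chromosome 5, 144190286 to 144194441 (GRCm38.p6). The sources used here do not say whether the probes fall inside the deletion. The 25 measured genes of digestive enzymes and other acinar secretions had summed signals of 433159 to 520584 in wild type after saline and 347377 to 475128 after caerulein. In Mist1KO the sums were 302608 to 349165 after saline and 181236 to 272030 after caerulein. Every Mist1KO caerulein array thus lay below every other array in this sum, and the part of this in the interactions was not tested.

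Of the 22452 probe sets, 415 passed the threshold for the interaction (1.85%; limma, Benjamini-Hochberg adjusted p under 0.05 over all probe sets), 202 above 0 and 213 below 0. At least 2-fold differences numbered 161 above 0 and 155 below. With 1 probe set per gene, 111 of 12335 named genes were above 0 (0.9%) and 135 below (1.09%). In all 415, every difference between single caerulein and saline arrays of one genotype lay beyond every such difference of the other genotype. The same arrays had selected these 415, so the separation is a description and no further support. The share over all 22452 probe sets was not counted. In the same fit, caerulein changed 2765 probe sets in wild type (12.3%) and 3551 in Mist1KO (15.8%). The median interaction over all genes was 0.01.

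Most of the probe sets past the threshold for the interaction passed for caerulein in a single genotype. Above 0, 120 rose in Mist1KO without passing in wild type, 35 fell in wild type without passing in Mist1KO, 33 rose in both and 9 fell in wild type and rose in Mist1KO. Below 0, 79 fell in Mist1KO without passing in wild type, 73 rose in wild type without passing in Mist1KO, 25 rose in both and 19 rose in wild type and fell in Mist1KO. Most probe sets past the threshold in a single genotype did not pass for the interaction. Of 1279 probe sets past the threshold in wild type alone, 108 passed for the interaction (8.44%), and of 2065 past it in Mist1KO alone, 199 did (9.64%). Across all probe sets the changes in wild type and in Mist1KO, which share no array, had a Pearson correlation of 0.57, given as a description. The genotypes differed past the threshold after caerulein alone in 298 of the 415, after saline alone in 64, after both in 52 and after neither in 1. Just inside the threshold lay Bmp1 (0.76) and Dynll1 (1.23), each at adjusted p = 0.0499, and just outside it Myo18a (0.65, adjusted p = 0.0501) and Slc25a39 (-0.99, adjusted p = 0.0502).

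**Figure D1:**
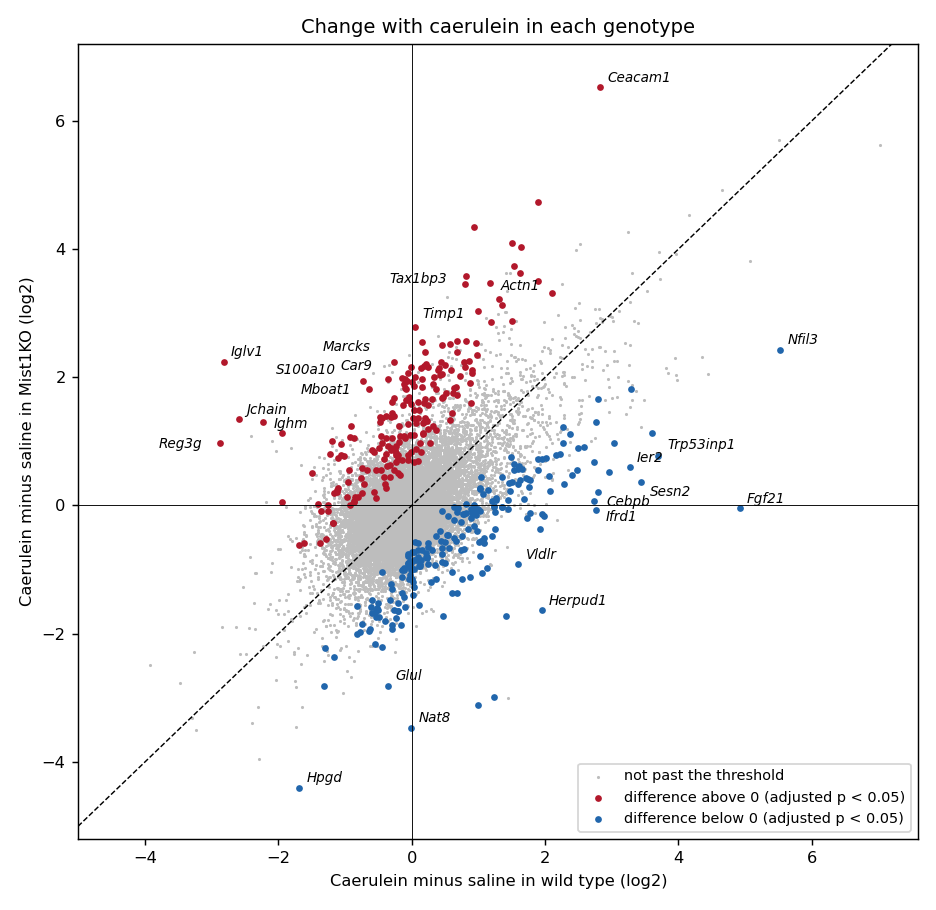
Each point is a probe set, placed by its change with caerulein in wild type (horizontal axis, log2) and in Mist1KO (vertical axis, log2), with the 202 probe sets past the threshold above 0 in red, the 213 below 0 in blue and all others in grey. The dashed line marks equal change, and the named genes are the 12 with the largest interaction on either side: Ceacam1, Timp1 and Iglv1 lie above the line, and Fgf21, Herpud1 and Nat8 below it.

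Single arrays moved the count. It dropped to 189 without Mist1KO saline replicate 3, 203 and 209 without Mist1KO caerulein replicates 1 and 2, 229 and 239 without Mist1KO saline replicates 2 and 1, and 236 and 250 without wild type caerulein replicates 2 and 3. Without Mist1KO caerulein replicate 3, which of its group correlated least with the others, it was 447. Without an intensity trend in the fit it was 206, and the calls of 27 genes named below ended (adjusted p from 0.051 to 0.154): S100a10, Mboat1 and 25 of the 55 list members, which were Reg3g, Ighm, Nfil3, Trp53inp1, Vldlr, Slc38a2, Slc7a5, Slc1a5, Stc2, Dnajc3, Ero1b, Sel1l, Edem1, Edem2, Mbtps1, Rars, Farsb, Jund, Sqstm1, Cldn18, Ctnna1, Cldn3, Cd44, Ezr and Cd14. Some measures of the arrays moved with the interaction. The 18 probe sets of hybridisation spikes, which no tissue makes, had geometric means of 1260, 1070, 914 and 446 in the order of groups given above, a difference of -0.76 on the log2 scale, and Actb had ratios of 3′ over 5′ signal of 1.53, 1.35, 1.82 and 1.12, a log2 difference of -0.52. Their part in the results was not tested, and the array medians of log2 values differed by 0.01. Fewer cells of a type and less RNA per cell cannot be told apart in RNA from a whole organ.

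Genes of the integrated stress response and of the response to amino acid shortage held the most interactions of the 33 gene lists described here. Of its 36 measured members, 14 lay below 0, none above 0 and 22 did not pass, with a median of -0.91. In wild type 31 members rose with caerulein and none fell, and in Mist1KO 20 rose and 2 fell. The median change was 1.5 in wild type and 0.58 in Mist1KO. Members with the largest interactions were the hormone Fgf21, the transcription factors Nfil3 and Cebpb, the stress-induced sestrin Sesn2, the lipoprotein receptor Vldlr and Ppp1r15a, which directs the removal of the phosphate from eIF2.

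Fgf21 encodes a secreted hormone that is induced by this response and acts on metabolism in other tissues. Its signals were 12.6, 21.8 and 18.7 in saline-injected wild type and 486, 1935 and 1318 after caerulein. In Mist1KO they were 7.9, 8.9 and 14.7 after saline and 7.8, 8.5 and 12.6 after caerulein. All wild type caerulein arrays were more than 10 times as bright as the other 9, whose groups overlapped. Fgf21 changed by 4.92 in wild type (adjusted p = 4.77e-06), the Mist1KO value was -0.04 (adjusted p = 0.97), and the interaction was -4.96 ± 0.55 (adjusted p = 0.00132). It was the largest below 0.

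The promoters of Fgf21 and of Herpud1, described further on, are shown because these genes had the largest interactions below 0 and both promoters hold the element that Atf4 binds together with C/EBP partners. The capitals mark the letters TTGCATCA, which match TGATGNAA on the opposite strand. Each window runs from 250 bases before to 50 bases after the RefSeq start of the gene (GRCm38.p6), chr7:45615441-45615740 on the minus strand for Fgf21 and chr8:94386179-94386478 on the plus strand for Herpud1. The match begins 139 bases before the start in Fgf21 and 112 bases before it in Herpud1.
Fgf21: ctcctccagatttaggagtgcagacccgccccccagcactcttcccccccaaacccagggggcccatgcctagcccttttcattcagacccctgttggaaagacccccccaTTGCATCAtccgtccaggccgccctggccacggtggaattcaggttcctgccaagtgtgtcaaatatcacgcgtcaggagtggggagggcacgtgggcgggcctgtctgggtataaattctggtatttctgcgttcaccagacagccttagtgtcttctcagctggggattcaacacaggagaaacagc
Herpud1: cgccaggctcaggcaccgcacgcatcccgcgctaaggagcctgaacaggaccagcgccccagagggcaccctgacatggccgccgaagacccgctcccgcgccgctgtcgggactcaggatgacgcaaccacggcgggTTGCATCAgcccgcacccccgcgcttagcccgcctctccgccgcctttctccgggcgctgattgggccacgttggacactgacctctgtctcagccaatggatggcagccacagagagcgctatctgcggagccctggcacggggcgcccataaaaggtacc

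Searched on both strands, TGATGNAA occurred in 3.97% of the 32851 promoter windows of the RefSeq table. It occurred in 10 of the 30 genes of the integrated stress response list that have a window there, namely Asns, Atf3, Chac1, Fgf21, Nupr1, Pck2, Slc1a4, Slc7a11, Trib3 and Vldlr. Of these, Fgf21 and Vldlr passed the threshold for the interaction and the others did not. A match is a run of letters, not a measured site. Only the motifs named in this report were searched for, so the unmarked letters of a window can hold other elements.

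Among the transcription factors of the list, Cebpb, a partner of Atf4, was covered by 2 probe sets, and both passed. With one of them the signals were 65.2, 112, 57.8 in saline-injected wild type and 601, 664 and 640.5 after caerulein, and 31.5, 76.5, 43 in Mist1KO after saline and 64.6, 82.5, 35.8 after caerulein. Every wild type caerulein array lay above the other 9, which overlapped. The interaction was -2.58 ± 0.41 (adjusted p = 0.00811). With the other, Cebpb rose in both genotypes, by 3.60 in wild type and 1.13 in Mist1KO (interaction -2.47 ± 0.32, adjusted p = 0.00374).

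Nfil3, a bZIP repressor that is also an output of the circadian clock, read 12.3, 9.8 and 19.5 in saline-injected wild type and 1219, 1949 and 1336 after caerulein. In Mist1KO it read 4.4, 24.9 and 5.6 after saline and 303, 147 and 52.3 after caerulein. It rose in both genotypes without overlap of the caerulein groups, by 5.53 in wild type and 2.43 in Mist1KO on the log2(signal + 18.7) scale, which understates changes from such dim signals (interaction -3.10 ± 0.62, adjusted p = 0.0251). The call of Nfil3 ended without any of 6 single arrays (adjusted p up to 0.0713) and with an offset of 1 (-2.90, adjusted p = 0.152).

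Atf4 itself, the factor at the centre of the response, rose in both genotypes, by 2.24 in wild type and 1.66 in Mist1KO. Its interaction did not pass (-0.59 ± 0.20, adjusted p = 0.198). Atf3 (-2.04 ± 0.67, adjusted p = 0.171) and Ddit3, which encodes the pro-apoptotic factor CHOP (-1.0 ± 0.41, adjusted p = 0.308), did not pass either. The glutathione-degrading enzyme Chac1 had -2.01 ± 0.47 (adjusted p = 0.0513) and the pseudokinase Trib3 -1.79 ± 0.49 (adjusted p = 0.0931).

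Sesn2, a sestrin that restrains the growth kinase mTORC1, read 15.2, 30.8 and 46.9 in saline-injected wild type and 462, 512 and 528 after caerulein. Mist1KO signals were 17.5, 31.6 and 30.2 after saline and 70.5, 56 and 10.1 after caerulein. The wild type caerulein arrays stood apart and the Mist1KO groups overlapped (interaction -3.07 ± 0.54, adjusted p = 0.0136, with the other probe set past the threshold on the same side). With an offset of 1 the adjusted p of Sesn2 was 0.0506. Ppp1r15a, the feedback phosphatase subunit, read 177, 231 and 162 in saline-injected wild type and 562, 1069 and 733 after caerulein. The Mist1KO arrays gave 297, 271 and 156 after saline and 201, 225 and 122 after caerulein. It rose in wild type (1.92) and had -0.36 in Mist1KO (adjusted p = 0.462), and the interaction was -2.28 ± 0.39 (adjusted p = 0.012). Vldlr, a receptor that takes up lipoproteins, read 139, 105 and 24 in saline-injected wild type and 263, 283 and 255 after caerulein. It read 138, 140 and 153 in Mist1KO after saline and 65.1, 83.3 and 54.9 after caerulein. The arrays of the genotypes moved apart (interaction -2.52 ± 0.51, adjusted p = 0.0263), and the call of Vldlr ended without any of 7 single arrays (adjusted p up to 0.0724).

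Amino acid transporters of the list made up 5 of the 14. Slc7a5 and Slc3a2, the chains of 1 exchanger of large neutral amino acids, rose in wild type by 1.14 and 1.46, with 0.24 and 0.35 in Mist1KO that did not pass. Their interactions were -0.91 ± 0.20 (adjusted p = 0.0398) and -1.11 ± 0.17 (adjusted p = 0.00771). Slc3a2 read 1975, 2053 and 1759 in wild type after saline, 4734, 5755 and 5535 after caerulein, 1748, 1797 and 1819 in Mist1KO after saline and 2339, 2573 and 1965 after caerulein. The caerulein arrays of Slc3a2 lay above the saline arrays in both genotypes, further in wild type. The glutamine carriers Slc38a2 (-1.15 ± 0.22) and Slc1a5 (-0.77 ± 0.18) also rose in wild type without passing in Mist1KO. The calls of Slc38a2, Slc7a5 and Slc1a5 ended without 3, 10 and 11 of the 12 arrays taken singly (adjusted p up to 0.0657, 0.0951 and 0.126). The glycine carrier Slc6a9 differed from these in that it fell in Mist1KO (-1.14), with 0.01 in wild type (interaction -1.15 ± 0.18, adjusted p = 0.00771).

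The enzymes of cysteine synthesis were on the list too. Cth, which makes cysteine from cystathionine, rose in both genotypes, by 2.16 in wild type and 0.79 in Mist1KO (interaction -1.37 ± 0.20, adjusted p = 0.00644). Cbs, which makes cystathionine, read 831, 700 and 631 in saline-injected wild type and 654, 710 and 730 after caerulein, without separation. Without Mist1 the signals were 730, 840 and 931 after saline and 339, 361 and 396 after caerulein, a fall of 1.15 without overlap (interaction -1.11 ± 0.17, adjusted p = 0.00789). The glycoprotein hormone Stc2 rose in wild type by 1.36 and had 0.44 in Mist1KO (interaction -0.92 ± 0.20, adjusted p = 0.0373), a call that ended without any of the 12 arrays (adjusted p up to 0.102). Asparagine synthetase, Asns, rose in both, by 0.78 and 0.56 (interaction -0.22 ± 0.16, adjusted p = 0.624). The members whose value lay above 0, none past the threshold, were Psat1, Eif4ebp1, Nupr1 and Cars.

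**Figure D2:**
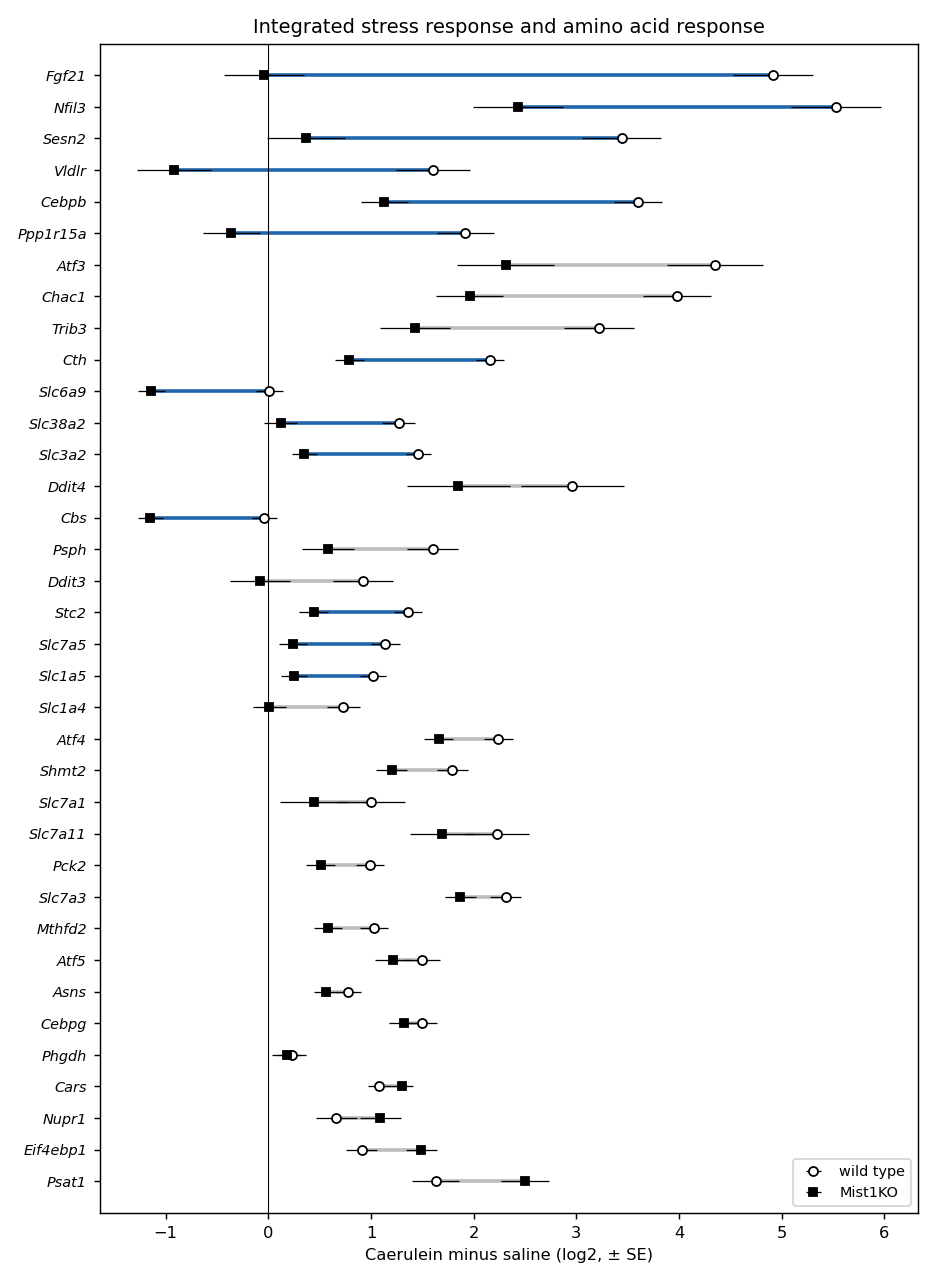
Each row is 1 of the 36 measured genes of the integrated stress and amino acid responses, with the log2 change with caerulein (horizontal axis, ± SE, 3 arrays per group) in wild type as an open circle and in Mist1KO as a filled square. Blue lines join the 14 genes past the threshold for the interaction, where the square lies to the left of the circle, and grey lines join the others.

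Leaving out Mist1KO saline replicate 2 gave a count of 8 in place of 14, and leaving out wild type caerulein replicate 2 or 3 or Mist1KO caerulein replicate 1 gave 9. Without an intensity trend the count was 8. Mist1KO caerulein replicate 3 had the lowest signal of its group for 25 of the 36 members, and without it 12 passed. Wild type caerulein replicate 1 was the lowest of its group for 24 of the 36, and without it 12 passed.

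Aminoacyl-tRNA synthetases, several of which are targets of the same response, had 2 of 20 members below 0, none above and a median of -0.46. Rars, the arginyl enzyme, rose in both genotypes, by 1.53 and 0.65 (interaction -0.88 ± 0.18, adjusted p = 0.026). Farsb, a chain of the phenylalanyl enzyme, rose by 0.82 in wild type with 0.03 in Mist1KO (-0.80 ± 0.18, adjusted p = 0.0425). The calls of Rars and Farsb ended without 5 and 11 of the 12 arrays taken singly (adjusted p up to 0.0746 and 0.115).

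The sensing and disposal of misfolded proteins in the endoplasmic reticulum (ER) had 5 of 23 measured members below 0 and none above, with a median of -0.27. Herpud1, a membrane protein of the complex that retrieves misfolded proteins for degradation, had the second largest interaction below 0. With 1 of its 2 probe sets it read 1263, 1294 and 880 in saline-injected wild type and 3900, 5513 and 3975 after caerulein. Those of Mist1KO were 1766, 1152 and 1534 after saline and 490, 366 and 544 after caerulein. The saline groups overlapped, and after caerulein the arrays lay above them in wild type and below them in Mist1KO. The interaction was -3.57 ± 0.29 (adjusted p = 0.000192), and with the other probe set -3.13 ± 0.31 (adjusted p = 0.000703). Herpud1 lies on chromosome 8, from 94386429 to 94395371 (GRCm38.p6).

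The other 4 members fell in Mist1KO. Sel1l, the scaffold of the same retrieval complex, read 2800, 2519 and 2648 in saline-injected wild type and 1444, 1676 and 1387 after caerulein. It read 4909, 4232 and 3980 in Mist1KO after saline and 878, 924 and 1515 after caerulein. Sel1l fell in both genotypes, from a higher level in Mist1KO (interaction -1.19 ± 0.25, adjusted p = 0.0298). Edem2 and Edem1, lectin-like proteins that mark glycoproteins for disposal, had -0.88 ± 0.16 (adjusted p = 0.0162) and -0.84 ± 0.19 (adjusted p = 0.0472). Mbtps1, the protease that activates the sensor Atf6, had -0.77 ± 0.15 (adjusted p = 0.0215). Of the sensors, Eif2ak3, the PERK kinase (-0.36 ± 0.29, adjusted p = 0.672), and Ern1, which encodes IRE1 (-0.12 ± 0.38, adjusted p = 0.941), did not pass, and Xbp1, the factor that IRE1 splices, had -0.01 ± 0.19. The call of Sel1l ended without any of 10 single arrays (adjusted p up to 0.0786). The calls of Edem1 and Mbtps1 ended without 10 and 3 of the 12 arrays taken singly (adjusted p up to 0.128 and 0.0615). Without an intensity trend the count of 5 was 1, Herpud1. It was 2 without Mist1KO caerulein replicate 1 or Mist1KO saline replicate 1 or 2, and 3 without any wild type saline array, wild type caerulein replicate 2, Mist1KO saline replicate 3 or Mist1KO caerulein replicate 2.

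ER chaperones and folding factors had 4 of 37 measured members below 0 and none above, with a median of -0.17. The 4 were Creld2, Hspa5, Ero1b and Dnajc3. Hspa5, the chaperone BiP that holds the stress sensors inactive, read 2776, 2870 and 2572 in saline-injected wild type and 7622, 9619 and 8419 after caerulein. In Mist1KO it read 3705, 3694 and 4004 after saline and 5250, 4774 and 4983 after caerulein. No group overlapped another, the Mist1KO saline arrays lying above those of wild type and the Mist1KO caerulein arrays below those of wild type. Hspa5 rose in both genotypes, 3.10-fold and 1.31-fold, folds here and further on being those of signals with the offset added (interaction -1.24 ± 0.17, adjusted p = 0.0038), and its other probe set passed on the same side.

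Creld2, a secreted folding factor induced by ER stress, read 381, 385 and 340 in saline-injected wild type and 345, 495 and 552 after caerulein. Mist1KO signals were 631, 647 and 665 after saline and 266, 265 and 288 after caerulein. The wild type groups overlapped, and in Mist1KO all arrays fell from above the wild type saline arrays to below them (interaction -1.49 ± 0.20, adjusted p = 0.00416). Ero1b, an oxidase that supplies disulfide bonds (-1.09 ± 0.24, adjusted p = 0.0398), and Dnajc3, a co-chaperone of Hspa5 (-0.73 ± 0.16, adjusted p = 0.0352), fell in Mist1KO, by 1.6 and 0.79, without passing in wild type. Their calls ended without 10 and 8 of the 12 arrays taken singly (adjusted p up to 0.111 and 0.105). The other 4 probe sets of Dnajc3 fell in both genotypes, with interactions from -0.30 to 0.31 that did not pass, and the other 2 of Ero1b had -0.33 and -0.50, not past the threshold. Of the other large chaperones, Hsp90b1 (-0.53), Pdia4 (0.07), Pdia3 (0.14), Canx (0.16) and Calr (0.36) did not pass.

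The promoters of Hspa5 and Creld2 are shown because both genes passed and both hold the full ER stress element, CCAAT and CCACG with any 9 bases between them, which is known to be bound by NF-Y with Atf6 or Xbp1. The capitals mark the match, on the plus strand in Hspa5 and on the minus strand in Creld2. The RefSeq windows (GRCm38.p6) are chr2:34771840-34772139 and chr15:88819396-88819695, both for genes on the plus strand.
Hspa5: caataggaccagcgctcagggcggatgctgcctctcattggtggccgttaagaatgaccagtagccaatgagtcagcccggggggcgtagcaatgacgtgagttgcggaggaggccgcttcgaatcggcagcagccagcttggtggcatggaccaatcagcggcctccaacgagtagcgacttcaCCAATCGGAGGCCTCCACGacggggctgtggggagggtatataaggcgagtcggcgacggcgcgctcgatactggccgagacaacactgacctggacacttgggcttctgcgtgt
Creld2: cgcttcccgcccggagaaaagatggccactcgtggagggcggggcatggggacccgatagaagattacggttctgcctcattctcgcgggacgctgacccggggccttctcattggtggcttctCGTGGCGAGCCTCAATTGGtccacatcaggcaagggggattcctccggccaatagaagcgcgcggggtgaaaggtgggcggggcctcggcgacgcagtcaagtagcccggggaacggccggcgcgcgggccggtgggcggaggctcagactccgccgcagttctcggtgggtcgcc

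The element occurred, on either strand, in 0.119% of all promoter windows and in 8 of the 30 genes of the ER chaperone list that have a window. These were Calr, Canx, Creld2, Dnajc3, Ero1b, Hsp90b1, Hspa5 and Pdia6. All 4 members past the threshold were among them, and the other 4 did not pass. In the list of ER stress sensors and degradation, 2 of the 19 genes with a window held the element. These were Derl3 and Syvn1, and neither passed the threshold for the interaction.

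Immediate early genes, which cells switch on within minutes of a stimulus, had 3 of 32 measured members below 0 and none above, with a median of -0.75. In wild type 21 rose, and in Mist1KO 11. Ier2, a nuclear protein of this class, read 182, 183 and 226 in saline-injected wild type and 1723, 2849 and 1773 after caerulein. The Mist1KO arrays gave 235.5, 359 and 322 after saline and 641, 668.5 and 234 after caerulein, where replicate 3 was no higher than the saline arrays. The interaction was -2.67 ± 0.46 (adjusted p = 0.0118). Jund, a component of AP-1, rose in both genotypes, by 1.89 and 0.72 (-1.17 ± 0.25, adjusted p = 0.0318). Its call ended without any of 8 single arrays (adjusted p up to 0.0906).

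Myc, a growth-promoting transcription factor, read 225, 192 and 129 in saline-injected wild type and 339, 541 and 455 after caerulein. Without Mist1 the signals were 376, 271 and 274 after saline and 198, 197 and 247 after caerulein. The arrays moved in opposite directions and no caerulein array overlapped its saline group (interaction -1.69 ± 0.30, adjusted p = 0.0136). Egr1 (-2.40 ± 0.65, adjusted p = 0.0926), Jun (-1.20 ± 0.30, adjusted p = 0.0679) and Fos (-1.57 ± 0.52, adjusted p = 0.18) had values below 0 that did not pass. Ier3 rose in both genotypes, by 3.01 in wild type and 2.94 in Mist1KO (-0.07 ± 0.40, adjusted p = 0.968). No member of the 14 MAP kinase phosphatases and feedback genes passed in limma's test. Of the 14, 4 had an unadjusted p under 0.05, against 13.6% of all probe sets. The largest value of the list was that of Dusp1, a phosphatase of MAP kinases (-1.80 ± 0.84, unadjusted p = 0.0514, adjusted p = 0.371).

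**Figure D3:**
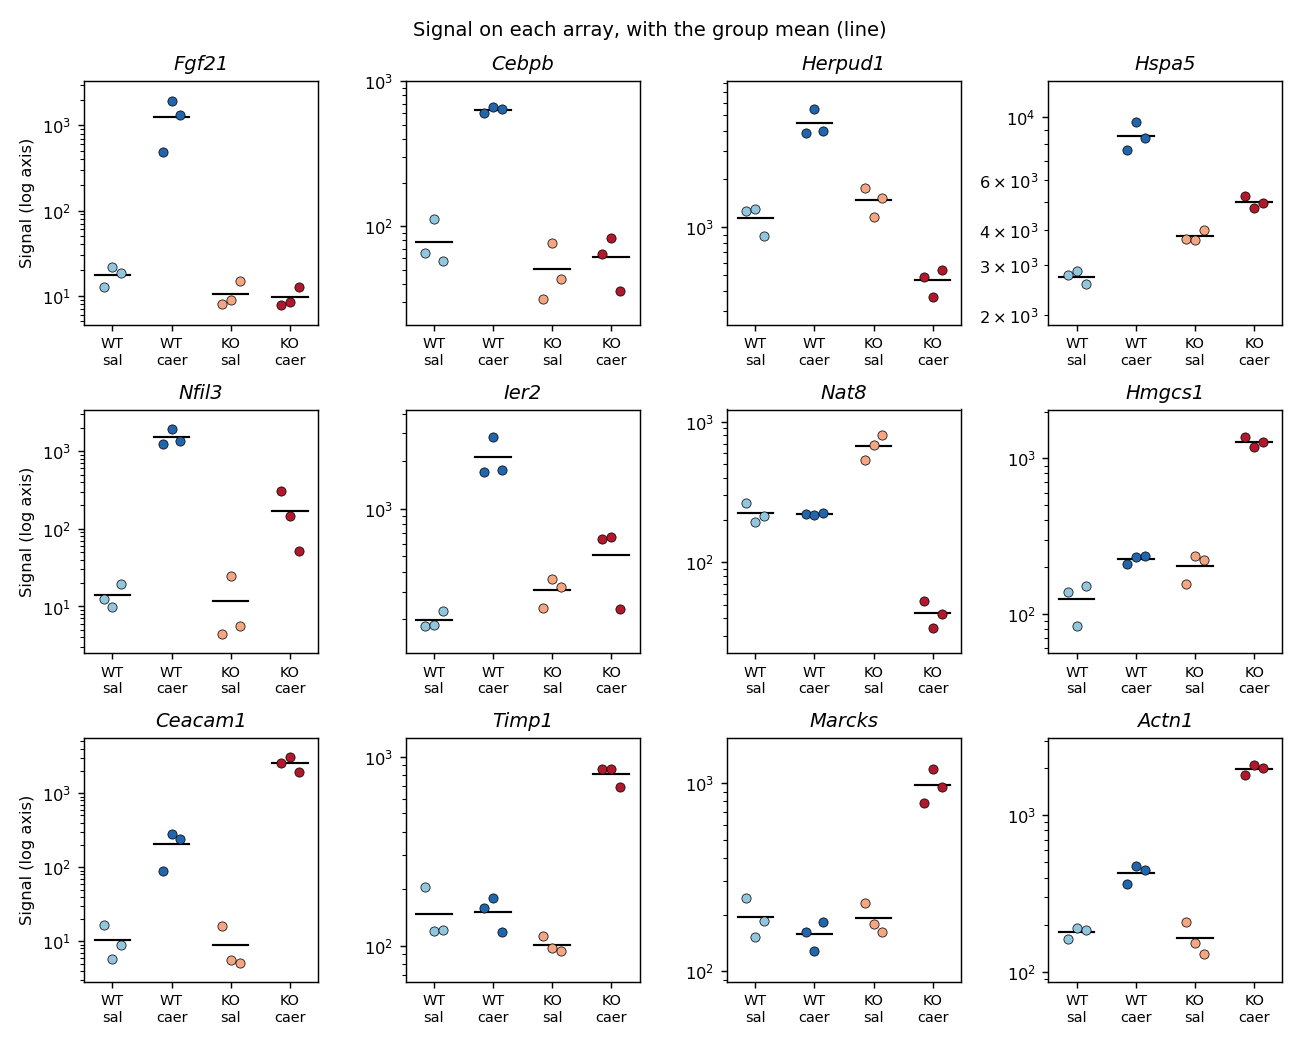
Signal (log axis) of 12 named genes on each of the 12 arrays, with 3 points per group and a line at the group mean, for wild type (WT) and Mist1KO (KO) after saline (sal) and caerulein (caer). In Fgf21, Cebpb, Nfil3 and Ier2 the wild type caerulein arrays are the brightest, in Ceacam1, Timp1, Marcks, Actn1 and Hmgcs1 the Mist1KO caerulein arrays are, and in Nat8 and Herpud1 the Mist1KO caerulein arrays are the dimmest.

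Among p53 targets 2 of 16 lay below 0 and none above, with a median of -0.70, and the 2 were Sesn2, already described, and Trp53inp1, a protein of stress and autophagy. Trp53inp1 read 290, 319 and 331 in saline-injected wild type and 4088, 4449 and 4302 after caerulein, and 851.5, 532.5 and 374 in Mist1KO after saline and 1424, 1538 and 401 after caerulein. It rose by 3.70 on the log2 scale in wild type and did not pass in Mist1KO (interaction -2.92 ± 0.56, adjusted p = 0.0215). Without Mist1KO saline replicate 1 or 2 or wild type caerulein replicate 2 or 3, its adjusted p lay between 0.0504 and 0.0534. Cdkn1a, the cell cycle inhibitor p21, rose in both (-1.26 ± 0.44, adjusted p = 0.21). Ifrd1, a co-regulator of differentiation that belongs to none of the lists, read 867, 1377 and 938 in saline-injected wild type and 6294.5, 8135 and 7203 after caerulein. Those of Mist1KO were 1492, 1463 and 1565 after saline and 1798, 1927 and 845 after caerulein, with overlap (interaction -2.84 ± 0.37, adjusted p = 0.00338).

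Some of the largest interactions below 0 were falls in Mist1KO from a level above that of wild type. Nat8, an acetyltransferase of the ER, read 264, 194.5 and 213 in saline-injected wild type and 220.1, 218 and 223 after caerulein. In Mist1KO it read 537, 684 and 803 after saline and 53, 34.4 and 42.8 after caerulein. The wild type arrays lay between these groups, with no overlap (interaction -3.46 ± 0.24, adjusted p = 6.19e-05, the smallest of the 24 largest). Hpgd, which inactivates prostaglandins, read 83.9, 116 and 125 in saline-injected wild type and 46, 7.7 and 16 after caerulein. It read 1623, 1144 and 1237 in Mist1KO after saline and 37.3, 40.8 and 57.5 after caerulein. It fell in both genotypes and the caerulein groups overlapped (interaction -2.71 ± 0.41, adjusted p = 0.00725), and with an offset of 1 its call ended (-2.36, adjusted p = 0.101). Glul, glutamine synthetase, fell 6.99-fold in Mist1KO, from signals of 1877 to 2512 after saline to signals of 260 to 343. In wild type it did not pass (interaction -2.45 ± 0.36, adjusted p = 0.00666). The other probe sets of Hpgd (-1.43) and Glul (-1.0, of higher mean) had the same sign without passing.

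Other lists had 1 or 2 members past the threshold. Rora, a nuclear receptor of the circadian loop, rose in wild type (0.79) and fell in Mist1KO (-0.68), with no overlap of the groups within a genotype (interaction -1.47 ± 0.20, adjusted p = 0.0038). Ccnd2, the G1 cyclin D2, rose in wild type (0.50) and fell in Mist1KO (-0.89), with signals of 449 to 544 and 623.5 to 876 in wild type and of 713 to 926 and 377 to 467 in Mist1KO. Its interaction was -1.39 ± 0.21 (adjusted p = 0.00666), and 3 of its other 5 probe sets passed on the same side. Hspa9, a mitochondrial chaperone in the heat shock list, rose in wild type by 1.71 with 0.43 in Mist1KO (-1.28 ± 0.21, adjusted p = 0.0096). Sqstm1, an adaptor of autophagy, rose in both (-0.60 ± 0.14, adjusted p = 0.0425), and its call ended without any of 10 single arrays (adjusted p up to 0.119). Mcm6, of the replicative helicase, lay above 0, with signals of 59.5 to 83.1 in Mist1KO after caerulein and of at most 17.3 elsewhere (1.45 ± 0.27, adjusted p = 0.0167). Without Mist1KO saline replicate 1 its adjusted p was 0.0513, and with an offset of 1 it was 0.0765.

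Above 0, the adhesion receptor Ceacam1 had the largest interaction that more than 1 probe set bore out, with 7 of its 8 probe sets past the threshold and the other of the same sign. With the one of largest interaction Ceacam1 read 16.5, 5.8 and 8.8 in saline-injected wild type and 88.9, 281 and 243 after caerulein. Mist1KO signals were 16, 5.6 and 5.1 after saline and 2574, 3107 and 1918 after caerulein. The saline groups overlapped, and every Mist1KO caerulein array lay above every wild type caerulein array. The rise was 2.82 in wild type and 6.53 in Mist1KO on the log2(signal + 18.7) scale, with saline signals below the offset (interaction 3.70 ± 0.48, adjusted p = 0.00338). Ceacam1 lies on chromosome 7, from 25461702 to 25477647 (GRCm38.p6).

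The list of the actin cytoskeleton, keratins and early epithelial injury had 4 of 34 measured members above 0 and 1 below, with a median of 0.30. In wild type 20 members rose and in Mist1KO 25. The 4 above 0 were Krt19, Cd44, Anxa2 and Ezr. Krt19, a keratin of duct cells and of injured acinar cells, read 56.9, 89.1 and 87.5 in saline-injected wild type and 291, 341 and 373 after caerulein. The Mist1KO arrays gave 64.8, 49.5 and 54.6 after saline and 917, 1055 and 586 after caerulein. Krt19 rose in both, 3.69-fold and 11.3-fold, and the caerulein groups did not overlap (interaction 1.62 ± 0.30, adjusted p = 0.0179).

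Without Mist1KO caerulein replicate 1 the interaction of Krt19 was 1.55 (adjusted p = 0.0588), and without Mist1KO caerulein replicate 2 it was 1.45 (adjusted p = 0.0526). Krt19 was also the only 1 of 8 measured duct cell markers to pass. Their median interaction was 0.68, the highest being that of the bicarbonate transporter Slc4a4 (2.38 ± 0.63, adjusted p = 0.0811). The summed signal of the 8 was 2422 to 2835 in wild type after saline, 2103 to 2500 after caerulein, 1681 to 1926 in Mist1KO after saline and 2722 to 2897 after caerulein, and no member was at 0. The carbonic anhydrase Car2 (1.31 ± 0.53), the chloride channel Cftr (1.09 ± 0.51), the mucin Muc1 (0.27), the duct factor Sox9 (0.20 ± 0.37), the duct keratin Krt7 (0.10 ± 0.47) and the factor Onecut1 (0.00) did not pass either. The part of duct cells in the Krt19 result was not tested.

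Anxa2, a membrane-binding protein that joins actin to vesicles, read 420, 438 and 550 in saline-injected wild type and 760, 935 and 967 after caerulein. It read 819, 817 and 740 in Mist1KO after saline and 3285, 3427 and 3382.5 after caerulein. It rose in both, with the Mist1KO caerulein arrays above all others (interaction 1.17 ± 0.17, adjusted p = 0.00644). S100a10, the protein that binds Anxa2 in a complex, read 107, 61.5 and 29.8 in wild type after saline, 22.4, 24.9 and 40.9 after caerulein, 21, 82.1 and 20.3 in Mist1KO after saline and 259, 168 and 150.1 after caerulein. The Mist1KO caerulein arrays of S100a10 lay above all others (interaction 2.67 ± 0.59, adjusted p = 0.0369). The other probe set of S100a10, of higher mean, had 0.75 ± 0.38 (adjusted p = 0.424), and the call ended without any of 9 single arrays (adjusted p up to 0.109). The hyaluronan receptor Cd44 (1.46 ± 0.30, adjusted p = 0.0298), whose call also ended without any of 9 single arrays (adjusted p up to 0.0842), rose in both. Ezr, which ties actin to the apical membrane, rose in Mist1KO without passing in wild type (1.06 ± 0.21, adjusted p = 0.0242), and its call ended without any of 6 single arrays (adjusted p up to 0.0691).

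Actn1 and Marcks, which are outside the list, were among the 12 largest interactions above 0. Actn1, the actin cross-linker alpha-actinin, read 163, 190.2 and 186 in saline-injected wild type and 366.5, 473.5 and 445 after caerulein, and 209, 152 and 129 in Mist1KO after saline and 1815, 2086 and 2013 after caerulein. It rose 2.25-fold and 11.1-fold (interaction 2.30 ± 0.22, adjusted p = 0.000555), and all 3 of its probe sets passed. Marcks, a substrate of protein kinase C that holds actin at the membrane, read 245, 152 and 185 in saline-injected wild type and 162, 128 and 184 after caerulein. Without Mist1 the signals were 231, 179 and 162.5 after saline and 781, 1194 and 947 after caerulein. The Mist1KO caerulein arrays of Marcks stood apart from the other 9, which overlapped (interaction 2.50 ± 0.28, adjusted p = 0.00158), and all 6 of its probe sets passed.

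Gamma-actin lay below 0. Actg1, its gene, read 1666, 1271 and 2008 in saline-injected wild type and 8953, 11405 and 13414 after caerulein. It read 3184, 2572 and 2233 in Mist1KO after saline and 6645, 6367 and 6714 after caerulein. It rose 6.79-fold in wild type and 2.48-fold in Mist1KO (interaction -1.45 ± 0.27, adjusted p = 0.017). The keratins Krt18 and Krt8 rose in both genotypes, and their interactions did not pass (0.01 ± 0.20, adjusted p = 0.993, and -0.44 ± 0.35, adjusted p = 0.658). Neither did that of Tnfrsf12a, the receptor of the cytokine TWEAK (-0.20 ± 0.49, adjusted p = 0.919). Without an intensity trend the count of 4 above 0 was 2. It was 1 without Mist1KO caerulein replicate 2 and 2 without Mist1KO caerulein replicate 1, Mist1KO saline replicate 3, wild type caerulein replicate 2 or 3 or wild type saline replicate 3.

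**Figure D4:**
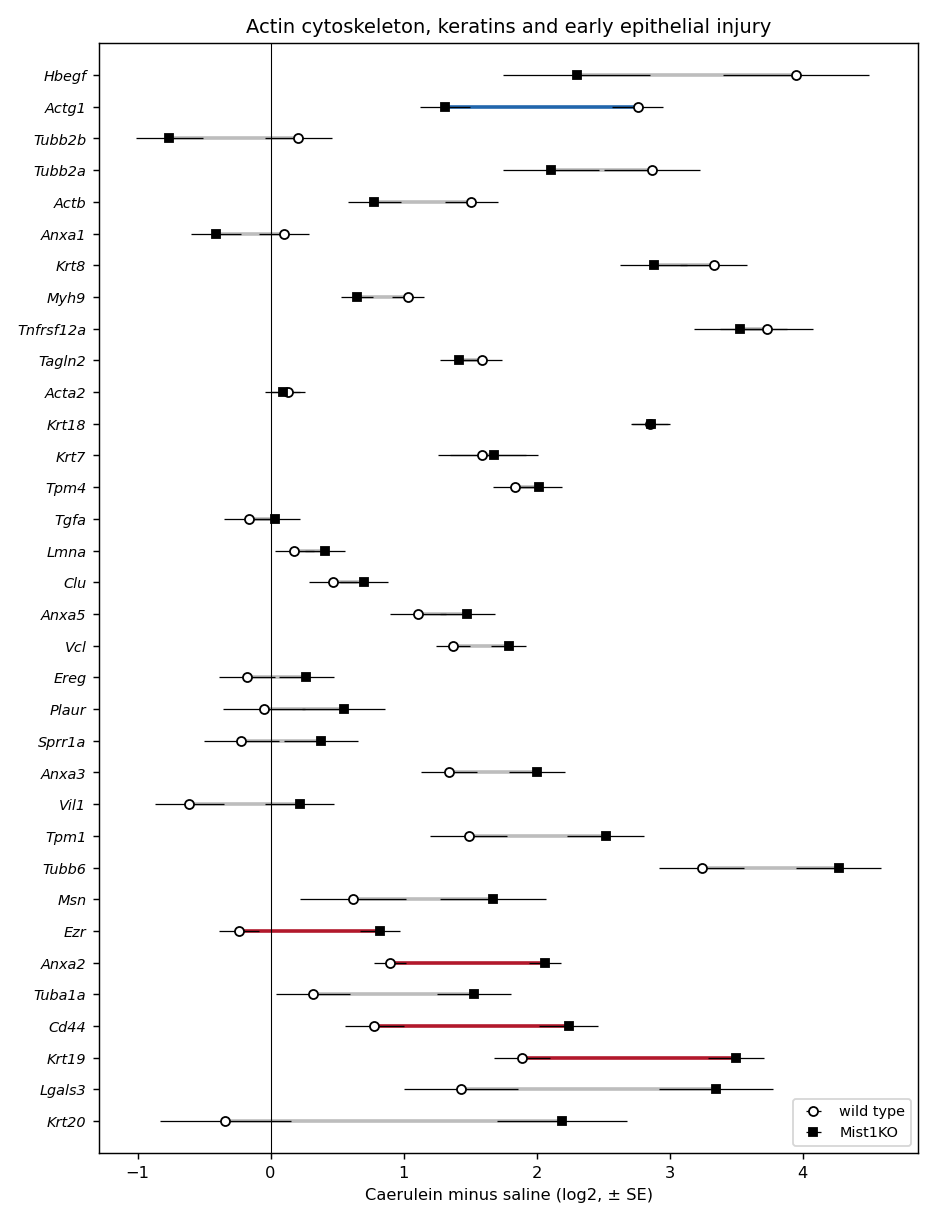
Each row is 1 of the 34 measured genes of the actin cytoskeleton, keratins and early epithelial injury, with the log2 change with caerulein (horizontal axis, ± SE, 3 arrays per group) in wild type as an open circle and in Mist1KO as a filled square. Red lines join the 4 genes past the threshold above 0, a blue line the 1 below 0, Actg1, and grey lines the others, among them Krt18, whose points coincide.

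Cell junctions and polarity had 3 of 26 measured members above 0 and none below, with a median of 0.21. They were Cldn18, a tight junction claudin of stomach and lung (1.43 ± 0.28, adjusted p = 0.0242), Ctnna1, alpha-catenin, which links cadherins to actin (1.24 ± 0.29, adjusted p = 0.0468), and the claudin Cldn3 (1.16 ± 0.21, adjusted p = 0.0148). Cldn18 read 120.2, 157 and 126 in saline-injected wild type and 138, 98 and 113 after caerulein, and 136, 163 and 139 in Mist1KO after saline and 494.5, 370 and 274 after caerulein. By these probe sets, all 3 rose in Mist1KO without passing in wild type. The other probe set of Cldn18 had 1.39 ± 0.41 (limma, adjusted p = 0.12). By it the genotypes already differed before caerulein, with saline means of 8.87 for wild type and 161 for Mist1KO (log2 difference 2.68, adjusted p = 0.000157). Its caerulein means were 18.1 and 599. Of the other Cldn3 probe sets, that with 1.13 passed (adjusted p = 0.0195), and those with 0.86 and 0.87 did not (adjusted p = 0.0833 and 0.142). The other probe sets of Ctnna1 had 0.40, with a rise in wild type as well (1.05, adjusted p = 0.000442), and -0.25, neither interaction past the threshold. The calls of Cldn18 and Ctnna1 ended without 6 and 11 of the 12 arrays taken singly (adjusted p up to 0.0691 and 0.121).

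Calcium signalling and secretagogue receptors had 2 of 27 measured members above 0 and none below, with a median of 0.31. Nfatc1, a transcription factor that calcineurin sends to the nucleus, read 218, 222 and 235 in saline-injected wild type and 285, 385 and 275 after caerulein. Those of Mist1KO were 224, 277 and 282 after saline and 1462.5, 1270.1 and 1181 after caerulein, far above all other arrays (interaction 1.81 ± 0.20, adjusted p = 0.0013). Orai1, the pore of store-operated calcium entry, read 228, 233 and 195 in saline-injected wild type and 159, 161 and 182.5 after caerulein. It read 192, 187 and 186 in Mist1KO after saline and 416, 379 and 336 after caerulein (interaction 1.28 ± 0.18, adjusted p = 0.00441). The Mist1KO caerulein arrays of Orai1 were the highest and the wild type caerulein arrays the lowest. Cckar, the receptor of caerulein, fell in both genotypes, by 1.99 and 1.48, and its interaction was 0.51 ± 0.23 (adjusted p = 0.345). Rcan1, which inhibits calcineurin, rose in both (-1.40 ± 0.92, adjusted p = 0.574).

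Of the 17 measured genes of sterol biosynthesis, 2 lay above 0 and none below, with a median of 0.31. Hmgcs1, which makes HMG-CoA at the start of the mevalonate pathway, read 138, 83 and 150.2 in saline-injected wild type and 209, 231 and 236 after caerulein. In Mist1KO it read 154, 234 and 223 after saline and 1382, 1183 and 1270.2 after caerulein. It rose 1.75-fold in wild type and 5.90-fold in Mist1KO, whose caerulein arrays stood apart (interaction 1.75 ± 0.27, adjusted p = 0.00771), and 3 of its 4 probe sets passed. Idi1, an isomerase further along the pathway, rose in Mist1KO by 1.86 with 0.03 in wild type (1.83 ± 0.37, adjusted p = 0.0251), and its call ended without any of 6 single arrays (adjusted p up to 0.0784). Sc5d, of the last steps, had 0.99 ± 0.23 (adjusted p = 0.0514). Sqle, squalene epoxidase, rose in both genotypes (0.17 ± 0.33, adjusted p = 0.895), and the regulators Srebf2 (0.24) and Srebf1 (0.31) did not pass.

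The promoter of Hmgcs1 is shown because it is the only 1 of the 13 genes of the sterol list with a window that holds CACCCCAC, the core of the element bound by the sterol-regulated factors SREBP. The capitals mark it on the plus strand, 136 bases before the start. The RefSeq window (GRCm38.p6), for a gene on the plus strand, is chr13:119690101-119690400. The motif occurred, on either strand, in 2.87% of all windows.
Hmgcs1: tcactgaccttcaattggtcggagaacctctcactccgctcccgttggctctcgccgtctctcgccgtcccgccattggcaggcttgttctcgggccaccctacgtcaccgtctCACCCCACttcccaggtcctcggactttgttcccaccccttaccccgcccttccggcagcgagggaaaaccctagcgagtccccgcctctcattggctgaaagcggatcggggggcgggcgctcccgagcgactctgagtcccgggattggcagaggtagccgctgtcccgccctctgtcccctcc

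NF-kB targets, cytokines and chemokines had the highest median of the lists, 0.70, with 29 of 36 measured members above 0 in sign. Of these, 2 passed and none passed below 0. Nfkbia, the inhibitor that NF-kB induces to end its own action, read 1860, 1786 and 1858.5 in saline-injected wild type and 1256, 1154.5 and 927 after caerulein. It read 1770, 1549 and 1604 in Mist1KO after saline and 2068, 2049 and 2105 after caerulein. It fell in wild type (-0.72), the groups lay apart in both genotypes, and the Mist1KO change of 0.34 had an adjusted p of 0.0586 (interaction 1.06 ± 0.16, adjusted p = 0.00666). The other 3 probe sets of Nfkbia had the same sign without passing (0.38, 0.65 and 0.88). Their Mist1KO changes were 0.12, 0.04 and 0.05. Il4ra, a chain of the receptors for interleukins of type 2 immunity, read 26.1, 32.1 and 28.9 in saline-injected wild type and 30.2, 38 and 40.6 after caerulein, and 21.5, 8.9 and 28.9 in Mist1KO after saline and 174, 190.5 and 171 after caerulein. Its interaction was 2.19 ± 0.35 (adjusted p = 0.00811). The cytokines Il6 (0.67), Tnf (-0.19) and Il1b (0.88) and the chemokines Ccl2 (0.68) and Cxcl1 (1.63) did not pass.

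Of the 19 measured neutrophil and macrophage markers, Cd14, a co-receptor for bacterial lipopolysaccharide, passed above 0 (1.66 ± 0.36, adjusted p = 0.0327) and the other 18 did not. Its call ended without any of 9 single arrays (adjusted p up to 0.0877). The summed signal of these markers was 2358 to 3218 in wild type after saline, 1915 to 2301 after caerulein, 1736 to 2707 in Mist1KO after saline and 2200 to 2452 after caerulein, and no member was at 0. The macrophage marker Cd68 had 0.38 ± 0.36 and the neutrophil proteins S100a8 and S100a9 1.81 ± 0.70 and 1.43 ± 0.72, none past the threshold.

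Lymphocyte and plasma cell markers had 3 of 14 measured members above 0, all of them genes of antibodies, and none below. Iglv1, a lambda light chain segment, had the largest interaction of all named genes, 5.05 ± 0.85 (adjusted p = 0.0108). It read 552, 67.2 and 202 in saline-injected wild type and 12.9, 5.1 and 22.4 after caerulein. Mist1KO signals were 7.5, 67.5 and 13.2 after saline and 154, 131 and 271.5 after caerulein. It fell in wild type and rose in Mist1KO without overlap within either genotype, from saline signals that spanned over 8-fold. Its other probe set had the opposite sign without passing.

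Jchain, which joins polymeric antibodies, read 914, 247 and 873.5 in saline-injected wild type and 91, 52.2 and 110.5 after caerulein. The Mist1KO arrays gave 202, 422.5 and 192 after saline and 447, 608 and 1150.2 after caerulein (interaction 3.94 ± 0.67, adjusted p = 0.0112). Ighm, the heavy chain of IgM, had 3.52 ± 0.77 (adjusted p = 0.0357). Its call ended without any of 9 single arrays (adjusted p up to 0.1), and 7 of its other 10 probe sets had the same sign, none past the threshold. The summed signal of the 14 markers was 3307 to 5689 in wild type after saline, 2237 to 2719 after caerulein, 2550 to 5168 in Mist1KO after saline and 4063 to 6612 after caerulein, and no member was at 0. The T cell gene Cd3e (-1.42 ± 0.64) and the B cell genes Cd79a (0.80 ± 0.27) and Ms4a1 (1.03 ± 0.36) did not pass. The part that the number of plasma cells in each piece of tissue had in these results was not tested.

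Timp1, a secreted inhibitor of matrix proteases that many cells make on injury, was the only 1 of 16 measured stroma and matrix markers to pass. It read 204, 119 and 120.5 in saline-injected wild type and 158, 178 and 117 after caerulein. Without Mist1 the signals were 112, 96.9 and 93.6 after saline and 858, 863 and 692 after caerulein, above all other arrays. Timp1 rose 6.87-fold in Mist1KO and had 0.05 in wild type (interaction 2.73 ± 0.28, adjusted p = 0.000805). The collagens Col1a1 (0.40), Col1a2 (-0.14) and Col3a1 (0.51) did not pass. The summed signal of the 16 markers was 4676 to 8643 in wild type after saline, 3898 to 5200 after caerulein, 5750 to 7892 in Mist1KO after saline and 4792 to 6583 after caerulein, and no member was at 0.

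Of the other genes with the largest interactions above 0, Car9, a carbonic anhydrase induced by hypoxia, read 145, 160 and 160.1 in saline-injected wild type and 115, 140.1 and 96.5 after caerulein. Those of Mist1KO were 155, 158 and 205 after saline and 693, 827 and 679 after caerulein, more than 3 times any other array (interaction 2.34 ± 0.22, adjusted p = 0.000555). Tax1bp3, a protein of a single PDZ domain, rose by 3.45 on the same scale in Mist1KO, from signals of 6.6 to 10.4 to signals of 175 to 353, and did not pass in wild type (2.64 ± 0.53, adjusted p = 0.0242). Mboat1, a lysophospholipid acyltransferase, rose in Mist1KO to signals of 168 to 319, with 43.5 to 70.6 after saline (2.46 ± 0.57, adjusted p = 0.0474). The calls of Tax1bp3 and Mboat1 ended without 6 and 10 of the 12 arrays taken singly (adjusted p up to 0.0691 and 0.123) and with an offset of 1 (adjusted p = 0.0607 and 0.0678).

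Products and regulators of the acinar cell formed separate lists. None of the 25 genes of digestive enzymes and other acinar secretions passed (limma, adjusted p), 23 of them with values below 0 and with a median of -0.36, and 2 had an unadjusted p under 0.05 (13.6% over all probe sets). The largest was that of the amylase Amy1 (-1.20 ± 0.32, adjusted p = 0.0822). The hybridisation spikes, at -0.76, shared the sign of this list and of every other list whose median lay below 0. Their part in any list was not tested. Of the 19 acinar transcription factors, Nr5a2, a nuclear receptor that keeps acinar genes on and restrains inflammatory ones, alone passed. By limma's test 7 of the 19 had an unadjusted p under 0.05, against 13.6% of all probe sets. Nr5a2 read 680.5, 799 and 685 in saline-injected wild type and 295, 265 and 225 after caerulein, and 707, 762 and 856 in Mist1KO after saline and 777, 591 and 1043 after caerulein. It fell 2.65-fold in wild type without overlap, and in Mist1KO the groups overlapped (interaction 1.42 ± 0.24, adjusted p = 0.0119). Its other 3 probe sets had the same sign, and 1 passed. Ptf1a (-0.51 ± 0.23, adjusted p = 0.343) and Rbpjl (-0.60 ± 0.28, adjusted p = 0.373), the factors that drive enzyme genes, did not pass.

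Reg3g, a secreted lectin against bacteria, was the only 1 of 7 Reg family genes to pass. It read 2564, 1185 and 4638 in saline-injected wild type and 735, 209 and 196 after caerulein. In Mist1KO it read 485, 378 and 181 after saline and 617.5, 383 and 1175 after caerulein. It fell in wild type without overlap, from a higher level than in Mist1KO, and the Mist1KO groups overlapped (interaction 3.85 ± 0.81, adjusted p = 0.0307). Its call ended without any of 8 single arrays (adjusted p up to 0.0852). Searched on both strands, the E-box CATATG, a form that Mist1 is known to bind, occurred in 3.91% of all promoter windows and 4.48% of all genes. Of the 48 named genes with a window, Reg3g and Cldn18 held it (4.17%), a share near that of all genes.

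**Figure D5:**
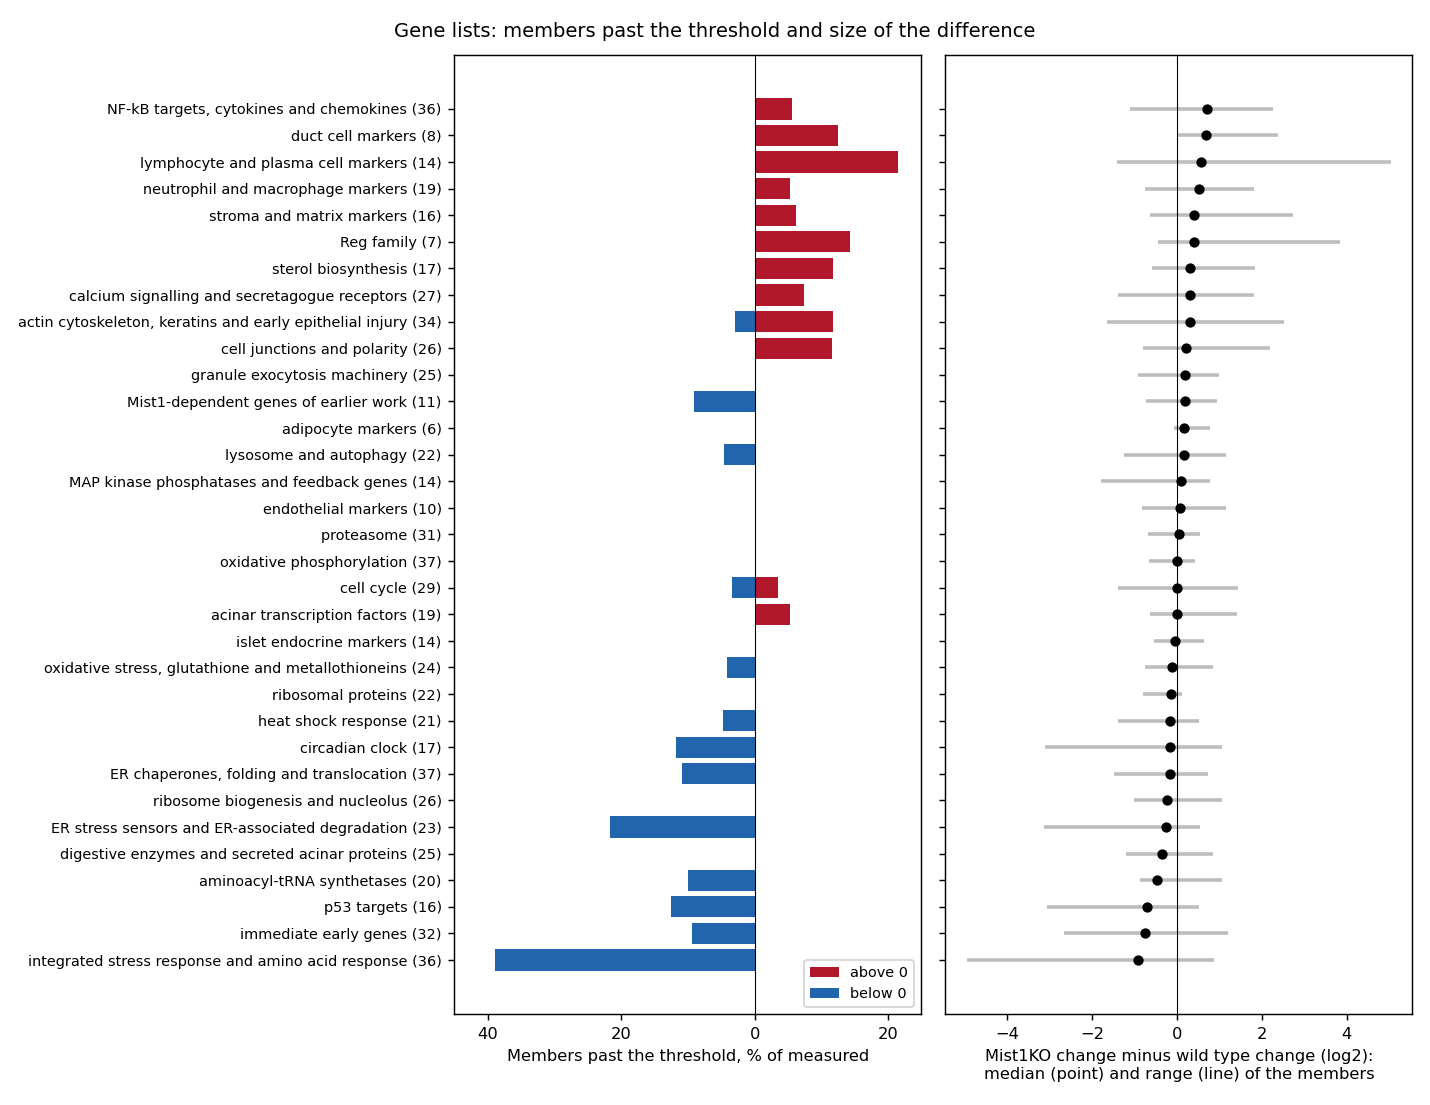
For each of the 33 gene lists, with the number of measured members in parentheses, the left panel shows the share of members past the threshold for the interaction (percent, above 0 in red to the right and below 0 in blue to the left) and the right panel the median (point) and range (line) of the interaction in log2. The list of the integrated stress and amino acid responses has the largest share below 0, 14 of 36, and the lymphocyte and plasma cell markers the largest above 0, 3 of 14.

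With the median over all its probe sets in place of the named one, an alternative chosen after seeing the data, the calls of 14 of the named genes with several probe sets ended: Iglv1 (2.20, adjusted p = 0.0678), Ighm (0.19, adjusted p = 0.929), S100a10, Vldlr, Dnajc3, Ero1b, Sel1l, Farsb, Hspa9, Nfkbia (0.62, adjusted p = 0.151), Mcm6, Ctnna1, Cldn3 and Cd44.

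Of the 697 genes measured over all lists, 55 passed, 21 above 0 and 34 below, against 246 of all 12335 named genes. The lists were chosen with earlier results of these data known, so this is a description. The count of 55 was 34 without wild type caerulein replicate 2 or Mist1KO caerulein replicate 1, 35 without Mist1KO saline replicate 3 and 36 without Mist1KO saline replicate 1. By limma's test no member passed among granule exocytosis genes, ribosomal proteins, nucleolar and ribosome assembly genes, the proteasome, oxidative phosphorylation, and markers of islets, endothelium and fat. In the same order, 6 of 25, 2 of 22, 8 of 26, 4 of 31, 4 of 37, 1 of 14, 1 of 10 and 0 of 6 members had an unadjusted p under 0.05, against 13.6% of all probe sets. The largest values there were those of the granule protein Dnajc5 (0.98 ± 0.27, adjusted p = 0.093), the endothelial receptor Flt1 (1.16 ± 0.54, adjusted p = 0.368), the nucleolar protein Rrp9 (1.05 ± 0.45, adjusted p = 0.322), the ribosomal protein Rps2 (-0.80 ± 0.29, adjusted p = 0.223) and the fat hormone Lep (0.78 ± 0.68, adjusted p = 0.699). Those of the islet factor Pax6 (0.64 ± 0.36, adjusted p = 0.485), the proteasome subunit Psmd7 (-0.69 ± 0.27, adjusted p = 0.279) and Uqcrfs1, of respiratory complex III (-0.67 ± 0.27, adjusted p = 0.281), were smaller.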

How the data were processed

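Whole-pancreas RNA was measured on 12 Affymetrix mouse arrays, 3 per group, with groups taken from the titles. The authors deposited signal intensities on a linear scale, with 1 value for each probe set on an array. For the probe summary and its scaling, the method was not given in the sources used here, and no detection calls were used. The 2% trimmed means of the arrays were equal to within 1 unit, near 151, so the deposited intensities had been scaled to a common mean, and they were kept. Before taking log2, 18.7 was added to each value (the 20th percentile over the table), which understates changes of dim genes. The 4 group means were estimated together by limma 3.58.1 under R 4.3.3 (lmFit, eBayes with an intensity trend, two-sided moderated test, 8 residual and 4.86 prior degrees of freedom). Benjamini-Hochberg adjustment covered the 22452 probe sets that are not controls, and adjusted p under 0.05 passed the threshold. The platform annotation gave 20240 probe sets a single symbol, 682 several and 1530 none, and 0 symbols changed on updating. A gene is represented in the lists by its probe set of highest mean. The number of arrays limits the precision.

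Named genes were the 12 largest interactions on either side past the threshold whose array differences did not overlap, up to 3 members past the threshold of each list (the largest value where none passed) and Bhlha15; list members named beside them were chosen after their values were seen. The members and lists were chosen with earlier results of these data known. Of 64 genes so named, 48 had a promoter in the RefSeq table (GRCm38.p6). On simulated data of 22452 probe sets, with 100 interactions of each size, 24% of those of 1 log2 unit and 71% of those of 2 were recovered, with 6 false among 101 calls. The simulated noise was normal and independent between probe sets and arrays, with variances from the same fit. It held no shift shared by the probe sets of an array, so it cannot show the false calls that such shifts would give. Same-numbered arrays showed no shared deviation: 18 correlations of their deviations lay between -0.08 and 0.03, none over 0.1. The labels do not say whether replicate numbers mark litters or days, and these correlations cannot settle it. Alternatives were the offset, a filter on dim probe sets, quantile normalization, centring on the median, no intensity trend, array weights, a replicate block, the median over a gene's probe sets (for single genes chosen after seeing the data) and leaving out each array. Plots used matplotlib 3.10.9 (Python 3.11.15).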

Additional observations from a re-analysis of the deposited data

Results flagged for a closer look

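The response to caerulein differed between the genotypes in 415 probe sets by limma's test of the interaction. In 73 of them all arrays of one genotype moved one way against their saline group and all arrays of the other moved the opposite way, 34 up in wild type and down in Mist1KO and 39 the reverse. The 415 were selected by the interaction on the same arrays, and such movement was not counted over all probe sets. Of the named genes, 10 were among the 73.

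Up in wild type and down in Mist1KO were Herpud1 with both probe sets (interaction -3.57 and -3.13), Vldlr (-2.52), Myc (-1.69), Rora (-1.47) and Ccnd2 (-1.39). Down in wild type and up in Mist1KO were Iglv1 (5.05), Jchain (3.94), Car9 (2.34), Orai1 (1.28) and Nfkbia (1.06). The wild type changes of Car9 (-0.36) and Orai1 (-0.35) and the Mist1KO changes of Vldlr (-0.92), Myc (-0.48), Jchain (1.35) and Nfkbia (0.34) did not pass the threshold on their own. No other probe set of Iglv1, Vldlr, Orai1 or Nfkbia passed for the interaction.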

How the results depend on the processing

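At the probe sets named by the rule, no interaction changed sign under the settings run on single probe sets or without single arrays. With the median over a gene's probe sets, that of Psmd7 turned, to 0.13 (adjusted p = 0.944). The count of 415 was 206 without an intensity trend (106 above 0 and 100 below, with 30 list members in place of 55) and 268 with a replicate block (131 above and 137 below). The labels do not say whether the replicate numbers mark matched samples. Without single arrays the count lay between 189 and 447, the part above 0 between 84 and 219, the part below 0 between 98 and 228 and the list members between 34 and 60. Calls ended under quantile normalization for Mboat1, Dnajc3, Jund, Sqstm1, Ctnna1, Cd44, Slc1a5 and Slc7a5, on centring on the median for Edem1, Ero1b, Slc1a5, Slc7a5 and Sqstm1, with array weights for Slc1a5, and with an offset of 1 for Ctnna1, Edem1, Slc1a5 and Stc2 beside those given in the text. With the replicate block they ended for Ighm, S100a10, Mboat1, Dnajc3, Ero1b, Sel1l, Edem1, Farsb, Sqstm1, Idi1, Cd44, Cd14, Slc1a5 and Slc7a5. A filter on dim probe sets gave 518, an offset of 1 gave 371 and one of 64 gave 464. Over the named genes, 611 of the values with single arrays left out kept direction and side of the threshold, 165 fell short of it and 4 passed newly, and under the other settings 494, 60 and 2 did. Dim genes are limited by signal near background, and 3 arrays per group by their number. The cause of these differences was not tested.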

Other observations

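The genes below lie outside the lists, had several probe sets past the threshold and were chosen after their values were seen; the ranges cover the probe sets that passed. Of 318 named genes with a probe set past the threshold, 45 had at least 2 and 11 at least 3, and 0 had probe sets past it in both directions. Below 0, Tsc22d1, a leucine zipper protein, had 3 of 6 probe sets past the threshold, with interactions from -2.04 to -1.41 and rises of 2.23 to 2.73 in wild type against 0.68 to 0.91 in Mist1KO. Klf9, a Krüppel-like transcription factor, had 2 of 7 (-2.11 and -1.68). Gtpbp2, a GTPase that rescues stalled ribosomes, had 2 of 3 (-1.34 and -1.33), with changes of 1.74 to 1.90 in wild type and 0.41 to 0.56 in Mist1KO. The small nucleolar RNA host gene Snhg1 had 3 of 5 (-1.51 to -1.25), and Clcn3, a chloride and proton exchanger of vesicles, 3 of 4 (-1.70 to -1.37), with changes of -1.86 to -1.63 in Mist1KO.

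Above 0, further genes of the actin cytoskeleton were Lasp1, an actin-binding adaptor (4 of 9 probe sets, 1.36 to 2.01), Cnn3, a calponin (3 of 6, 1.11 to 1.91), and Eps8, which caps actin filaments (2 of 3, 1.67 and 2.01). Lasp1 changed by 1.05 to 1.90 in Mist1KO and by -0.30 to -0.09 in wild type. The cytokine receptor kinase Jak2 had both of its probe sets past the threshold (1.92 and 2.06), with changes of 2.16 and 3.04 in Mist1KO against 0.25 and 0.99 in wild type. Glo1, which detoxifies methylglyoxal, had 2 of 3 (1.32 and 1.40), and Elovl1, a fatty acid elongase, 2 of 3 (1.17 and 1.38).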
